A study of Mus musculus with 89 samples.

Results

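The effect of ovalbumin (OVA) challenge in lungs given carboxyl-coated copper oxide nanoparticles at the highest dose (CuO COOH 40) was described from 6 of the 89 samples of the series, chosen by their labels alone. The comparison sets 3 OVA-challenged samples (CuO COOH 40 + OVA) against 3 PBS-challenged samples (CuO COOH 40). The sampled tissue was lung of female BALB/c mice aged 6 to 8 weeks. All groups, the controls included, had been sensitized with OVA in alum on days 1 and 10 and rested for 10 days, so the comparison measures the challenge in sensitized animals and not sensitization itself. Both groups received 40 μg/day of CuO COOH into the throat for inhalation (oropharyngeal aspiration) on consecutive days, and the lungs were taken 24 h after the last exposure. The sample descriptions give the dose in μg/day, while the treatment text of the labels gives the same figures in mg, and the descriptions were followed. RNA was pooled by 2 before hybridization, out of groups of 8 mice, so the p-values below measure the spread between pools. The 3 OVA effects set beside it come from sensitized mice that received no nanomaterial (8 OVA and 7 PBS samples), uncoated CuO at 40 μg/day (3 and 3 samples) and CuO COOH at 2.5 μg/day (3 and 3 samples). The controls without nanomaterial are more samples than separate pools of 2 from 8 mice can give, which the sources used here do not explain. These controls were spread over all 6 slides, slides 4 to 6 among them, which held no CuO COOH sample.

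RNA was measured on 2-colour Agilent arrays. OVA samples 1 and 2 and PBS samples 2 and 3 carried Cy3, and the other 2 samples Cy5. Slide 1 held OVA sample 1 and PBS sample 1, slide 2 held OVA samples 2 and 3 and PBS sample 2, and slide 3 held PBS sample 3. No array held a sample of both groups. Between 53.3% and 67.8% of the spots of these 6 samples were well above background, and the median foreground was 2.82 to 4.05 times the local background. Levels below are log2 intensities, quantile normalized and with dye and slide removed, and differences are on the same log2 scale. A gene was called when its limma adjusted p was under 0.05 and its log2 difference above 0.58, a 1.5-fold change. Genes of alveolar type 2 cells, which only lung holds in number, were abundant, with a mean level over 13 genes of 13.74 to 13.85 in the OVA samples and of 13.95 to 14.02 in the PBS samples. In whole tissue, more cells of a type and more RNA per cell cannot be told apart.

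Allergen challenge of a sensitized lung is known for its type 2 response, in which IL-4 and IL-13 act through STAT6 on epithelium and macrophages. Goblet cells then make mucus, macrophages make chitinase-like proteins and arginase 1, and eotaxins draw in eosinophils. Type I interferons act through a transcription factor complex with IRF9, which binds an interferon-stimulated response element (ISRE) before genes of antiviral defence.

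OVA challenge raised 406 genes and lowered 30 in CuO COOH 40 lung, which is 1.9% of the 22911 genes tested (1.77% higher and 0.131% lower). At an unadjusted p under 0.05 were 16.9% of all genes. The log2 difference of the rises had a median of 0.84 and reached 5.18, while the falls had a median of -0.68 and reached -1.18. Among the rises were genes of type 2 inflammation, such as Clca1, Ccl8 and Chil4, and the whole measured list of type I interferon response genes, such as Irf7 and Ifi44. In 398 of the rises and 29 of the falls the 3 OVA samples did not overlap the 3 PBS samples, against 23.4% of all genes tested. Within slide 1, 404 of the 406 rises were higher and 29 of the 30 falls lower in the OVA sample, and within slide 2 all 406 and all 30 were. These counts come from the samples that gave the calls, so they describe the calls and are not independent support. With the array as a fixed term, 1 gene was called. The median standard error was then 0.23 in place of 0.11, and 402 of the 406 rises and 29 of the 30 falls kept their sign. Without OVA sample 1, 237 genes were called.

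The epithelial gene Clca1, which encodes a secreted regulator of mucus and chloride transport, had the largest rise. Its level was 12.21, 12.54 and 12.52 in the OVA samples and 7.07, 7.67 and 7.09 in the PBS samples. The groups were far apart, with a log2 difference of 5.18 ± 1.08 (SE, limma adjusted p = 0.00105). Itln1, a lectin of goblet cells, stood at 11.65, 11.46 and 11.15 against 8.79, 8.56 and 8.45, a rise of 2.82 ± 0.39 (adjusted p = 1.42e-06). The gel-forming mucins were not called. Muc5ac, which marks airway goblet cells, was at 7.92, 7.33 and 7.95 in the OVA samples and at 6.87, 7.36 and 7.08 in the PBS samples, groups that overlapped, with a log2 difference of 0.64 ± 0.48 (adjusted p = 0.543). Muc5b, the other airway mucin, differed by 0.57 ± 0.41 (adjusted p = 0.528). Of the 17 goblet cell and mucus genes, 3 rose (Clca1, Itln1 and Creb3l1) and 0 fell, where 1.77% and 0.131% of all genes did. The median log2 difference of the list was 0.62, where the median of all genes was -0.006.

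Chemokines that attract eosinophils, monocytes and Th2 cells rose. Ccl8, a ligand of CCR8 in mice, was at 14.20, 14.72 and 12.89 in the OVA samples and at 10.16, 9.93 and 10.18 in the PBS samples, a rise of 3.85 ± 0.55 (adjusted p = 2.69e-06). OVA sample 3 was the lowest of its group but lay above all PBS samples. The eotaxin Ccl24 rose by 2.54 ± 0.39 (12.40, 11.11 and 10.81 against 8.87, 8.71 and 9.11) and the eotaxin Ccl11 by 2.22 ± 0.31 (9.57, 8.90 and 8.75 against 6.47, 7.03 and 7.03). The list of eotaxins and ligands of CCR3, CCR4 and CCR8 had 5 of 10 genes called higher and 0 lower, against 1.77% and 0.131% of all genes. Ccl17, a CCR4 ligand, did not pass at 0.68 ± 0.24 (adjusted p = 0.0963), although its samples did not overlap. Of 11 monocyte chemokines and their receptor, 6 rose (1.77% of all genes), among them Ccl12 (2.08 ± 0.33), Ccl7 (1.91 ± 0.46) and Ccl9 (1.38 ± 0.22), and 0 fell. Without OVA sample 1, 2 of these 11 monocyte genes were called. The attractant Ccl2 stood at 14.09, 13.32 and 13.74 against 12.70, 12.22 and 12.25 and missed the threshold (adjusted p = 0.0546).

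Of 15 genes of alternatively activated macrophages, 7 rose and 0 fell (1.77% and 0.131% of all genes), with a median log2 difference of 1.08. Chil4, a chitinase-like protein, was at 10.64, 10.04 and 9.67 in the OVA samples and at 6.59, 7.23 and 7.17 in the PBS samples, a rise of 3.12 ± 0.37 (adjusted p = 5.69e-08). Its neighbour Chil3, a near copy whose probes may share signal with it, rose by 2.20 ± 0.45, with OVA sample 2 at 17.12 and the other OVA samples at 14.76 and 14.57. Arg1, which breaks down arginine, rose by 2.36 ± 0.51 (12.94, 12.53 and 11.36 against 10.34, 9.76 and 9.63). Retnla, a secreted factor of macrophages and epithelium, was at 15.19, 17.61 and 16.39 in the OVA samples and at 16.01, 15.23 and 14.68 in the PBS samples. These samples overlapped, and the log2 difference of 1.08 ± 0.47 did not pass (adjusted p = 0.209). Gm15056, named here for the size of its rise and not as a macrophage gene, rose by 3.36 ± 0.49. It went from 7.15, 7.09 and 7.21 in the PBS samples to 11.06, 10.16 and 10.26 in the OVA samples.

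Of 10 eosinophil genes 4 rose and 0 fell (1.77% and 0.131% of all genes), and without OVA sample 1, 2 of 10 rose. Prg2, the major basic protein of eosinophil granules, was at 8.64, 8.07 and 7.49 against 5.97, 6.23 and 6.22, a rise of 1.92 ± 0.32 (adjusted p = 2.53e-05). Epx, the eosinophil peroxidase, was not well above background in any PBS sample. Its normalized mean was 6.97 in the OVA samples against a measured 5.58 in the PBS samples, where the lowest signal of a probe well above background sets a bound of 5.81, so the rise was at least 2.24-fold (adjusted p = 0.000736). Mcpt8, a basophil protease, rose by 2.51 ± 0.37, from 5.95, 6.25 and 6.16 to 8.98, 8.25 and 8.58. Among cytokines, Il4 rose by 0.96 ± 0.25 (7.67, 6.68 and 6.63 against 6.01, 6.28 and 5.80), with OVA sample 1 the highest. The Il4 difference was 1.66 within slide 1 and 0.37 within slide 2, and it was not called without OVA sample 1 (0.57, adjusted p = 0.476) or PBS sample 3 (0.84, adjusted p = 0.068). Il4 and Socs1 were the 2 of 19 type 2 cytokine, alarmin and receptor genes that rose (1.77% of all genes), and 0 fell. Il5 and Il13 were not well above background in any of the 6 samples. Of the 4 measured eosinophil-associated ribonucleases 2 rose and 0 fell. Ear10 rose by 1.30 (limma adjusted p = 0.000165) and Ear6 by 0.89 (limma adjusted p = 0.0217), and their calls were lost in 1 and 5 of 18 alternatives. Ear1 and Ear2, ribonucleases of eosinophils and macrophages, were not called and differed by 0.38 ± 0.25 and 0.48 ± 0.27 with overlapping samples.

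**Figure D1:**
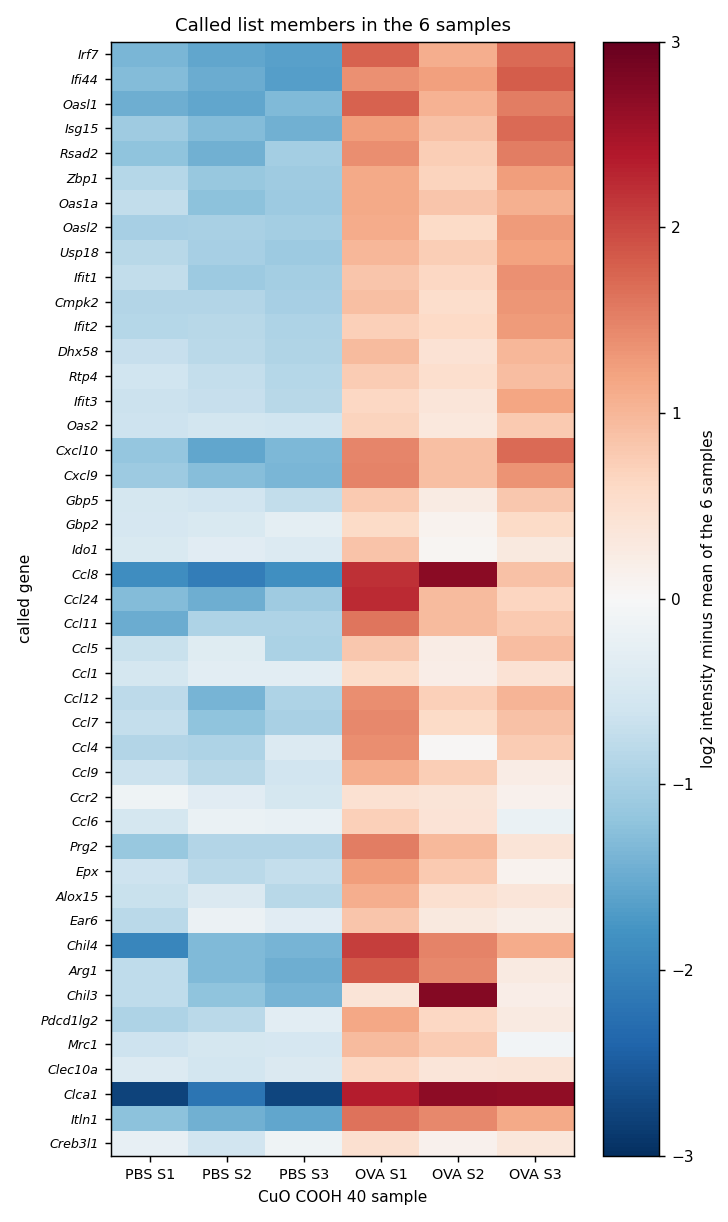
Heat map of 45 called genes of 7 lists (rows, italic symbols) in the 3 PBS and 3 OVA samples of CuO COOH 40 lung (columns), as log2 intensity minus the mean of the 6 samples, on a scale from -3 to 3 with red above and blue below the mean. The upper rows are interferon genes, such as Irf7 and Ifi44, and the lower rows chemokine, eosinophil, macrophage and goblet cell genes, in which OVA sample 3 is mostly paler than OVA sample 1.

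The type I interferon response genes rose together. Their list, like the others, was chosen with earlier results of these data known. Its counts are therefore a description and not independent support. All 16 measured genes of this list were called higher (1.77% of all genes), with no overlap between the groups and a median log2 difference of 1.97. Of all genes, 9.94% had the 3 OVA samples above the 3 PBS samples. All 16 were also called when any single sample of the 6 was left out and in a fit of these 6 samples alone. With the array as a fixed term 0 of 16 were called and the median was 1.83. Their mean level was 11.17, 10.77 and 11.38 in the OVA samples and 8.99 to 9.14 in the PBS samples. Irf7, the transcription factor that amplifies interferon production, was at 13.25, 12.59 and 13.18 against 10.13, 9.94 and 9.86, a rise of 3.03 ± 0.43 (adjusted p = 2.26e-06). Ifi44 stood at 10.73, 10.59 and 11.18 against 8.06, 7.87 and 7.70 and rose by 2.96 ± 0.40 (adjusted p = 1.04e-06). Oasl1, an inhibitor of Irf7 translation, rose by 2.89 ± 0.41. Isg15, a ubiquitin-like modifier, rose by 2.54 ± 0.37, from 11.99, 11.76 and 11.61 to 14.31, 13.93 and 14.75. Rsad2, the antiviral enzyme viperin, rose by 2.43 ± 0.37, from 6.97, 6.74 and 7.17 to 9.58, 8.91 and 9.71. In these genes OVA sample 2 was the lowest of the 3 OVA samples whereas in Prg2 and Epx OVA sample 3 was lowest.

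Of 13 Th1 and interferon gamma genes, 6 rose and 0 fell. Cxcl10 and Cxcl9, ligands of CXCR3, rose by 2.69 ± 0.51 and 2.50 ± 0.34. Cxcl10 stood at 12.56, 12.00 and 12.80 in the OVA samples and at 9.93, 9.54 and 9.76 in the PBS samples, with no overlap. Of 15 TNF and NF-kB feedback genes 4 rose, which were Cxcl10 again, the receptor antagonist Il1rn (1.14 ± 0.21), Tnf (0.72 ± 0.20) and its receptor Tnfrsf1b (0.62 ± 0.15). Of 18 genes of class II presentation and dendritic cells 3 rose (Cd83, Flt3 and Cd209a). In the T cell list 1 of 19 genes rose (Icos), in the B cell and plasma cell list 0 of 13, in the neutrophil list 1 of 18 (Retnlg), and in the list of cytotoxic and NK cells 2 of 11 (Gzmb and Klrk1). No gene of these lists fell. Over all genes tested, 1.77% were called higher and 0.131% lower.

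Promoters are shown for rising genes in which the 250 bases before the start hold a motif, so that the letters can be seen beside the values. The STAT6 palindrome (TTCNNNNGAA) and the STAT palindrome (TTCNNNGAA) read the same on both strands. The ISRE core (GAAANNGAAA, or TTTCNNTTTC on the other strand) was added after the interferon genes had been seen to rise. Sequences are from RefSeq (GRCm38.p6), 5′ to 3′ along the gene, with the motif in capitals. Isg15 (chr4:156200819-156201068, minus strand) holds 3 overlapping ISRE matches, Oas1a (chr5:120907526-120907775, minus strand) 2 beside palindromes that are not marked, Rsad2 (chr12:26456453-26456702, minus strand) 1 and Ifit3b (chr19:34607707-34607956, plus strand) 2. Gm15056 (chr8:20902457-20902706, minus strand) holds the STAT6 palindrome, and Chil4 (chr3:106219480-106219729, minus strand) the STAT palindrome.
Isg15: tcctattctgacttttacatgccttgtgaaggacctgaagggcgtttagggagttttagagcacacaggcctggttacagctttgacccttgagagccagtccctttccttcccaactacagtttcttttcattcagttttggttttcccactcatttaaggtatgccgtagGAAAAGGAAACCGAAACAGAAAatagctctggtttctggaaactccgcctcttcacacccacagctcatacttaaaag
Oas1a: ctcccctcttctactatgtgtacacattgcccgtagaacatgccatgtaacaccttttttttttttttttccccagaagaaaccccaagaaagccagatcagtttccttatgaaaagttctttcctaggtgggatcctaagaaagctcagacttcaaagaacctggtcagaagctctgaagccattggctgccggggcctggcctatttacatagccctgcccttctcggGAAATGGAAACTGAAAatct
Rsad2: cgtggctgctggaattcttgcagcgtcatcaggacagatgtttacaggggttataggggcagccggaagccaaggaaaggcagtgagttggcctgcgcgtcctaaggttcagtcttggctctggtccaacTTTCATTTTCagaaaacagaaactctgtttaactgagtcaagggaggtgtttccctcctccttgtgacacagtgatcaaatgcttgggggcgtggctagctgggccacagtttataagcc
Ifit3b: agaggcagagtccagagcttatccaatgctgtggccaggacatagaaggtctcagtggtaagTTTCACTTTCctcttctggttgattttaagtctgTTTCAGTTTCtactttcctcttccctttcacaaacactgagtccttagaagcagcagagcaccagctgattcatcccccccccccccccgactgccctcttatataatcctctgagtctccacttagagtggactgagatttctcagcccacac
Gm15056: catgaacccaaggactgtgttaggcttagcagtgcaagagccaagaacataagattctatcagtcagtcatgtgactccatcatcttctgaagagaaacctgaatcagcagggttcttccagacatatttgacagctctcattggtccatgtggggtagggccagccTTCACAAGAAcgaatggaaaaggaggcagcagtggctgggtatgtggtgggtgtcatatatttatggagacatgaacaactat
Chil4: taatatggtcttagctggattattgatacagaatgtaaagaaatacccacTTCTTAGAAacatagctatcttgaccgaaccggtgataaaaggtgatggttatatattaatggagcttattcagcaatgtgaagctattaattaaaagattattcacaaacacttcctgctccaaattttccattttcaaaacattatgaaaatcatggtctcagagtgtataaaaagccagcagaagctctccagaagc

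The ISRE core lay in the promoters of 55 of the 316 rises with a promoter in the table (17.4%) and of 5 of 11 genes of the type I interferon list (45.5%), while 2.98% of all 32851 promoters and 3.44% of the measured genes hold it. The STAT6 palindrome was found in 33 of the 316 rises (10.4%), in 6.47% of the measured genes and in 5.85% of all promoters. The STAT palindrome was found in 37 (11.7%), 7.93% and 7.02%. Among the 23 falls with a promoter, 1 held the ISRE core. In Chil3 and Chil4 the same letters, TTCTTAGAA, began at -172 and -200 relative to the start. In the promoters of Irf7, Ifi44, Oasl1, Ccl8 and Itln1 none of these letters were found in this window. A promoter was held for 16 of the 22 named rises. Of the others, Arg1, Ccl11, Ccl24, Ccl7, Clca1 and Prg2 are named only.

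The 30 falls were small. Gm4956 fell by 1.18 (SE 0.28), from 9.77, 9.85 and 9.92 in the PBS samples to 8.06, 8.79 and 9.16 in the OVA samples. Epas1, a hypoxia-regulated transcription factor of lung endothelium, stood at 15.09, 15.22 and 15.53 against 16.04, 16.22 and 16.27 and fell by 0.89 (SE 0.20, adjusted p = 0.00248). Esm1, a secreted endothelial protein, fell by 0.90 (SE 0.27), and Fgg, the gamma chain of fibrinogen, by 0.93 (SE 0.20). Other falls were in metabolic enzymes. Pdk4, which restrains pyruvate oxidation, fell by 0.85 (SE 0.25), Inmt, a methyltransferase abundant in lung, by 0.85 (SE 0.25), and the near copies Selenbp1 and Selenbp2 by 0.80 and 0.79. The calls of Inmt and Esm1 were close to the threshold (limma adjusted p = 0.0353 and 0.0365). They were lost in 12 and 8 of 18 alternatives. Gm31534 was well above background in 1 of the 6 samples, PBS sample 1 at 7.58, and its call rests on that sample. Of the 16 endothelial genes in the list 0 were called in either direction, with a median of -0.12, and of 11 alveolar type 1 genes 0 were called, with a median of -0.23, although 9 of these 11 had all OVA samples below all PBS samples. Among all genes, 23.4% did not overlap when both directions are counted. Of all genes, 9.94% had all OVA samples above all PBS samples, and the rest of the 23.4% had them below, the direction of these 9 genes.

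**Figure D2:**
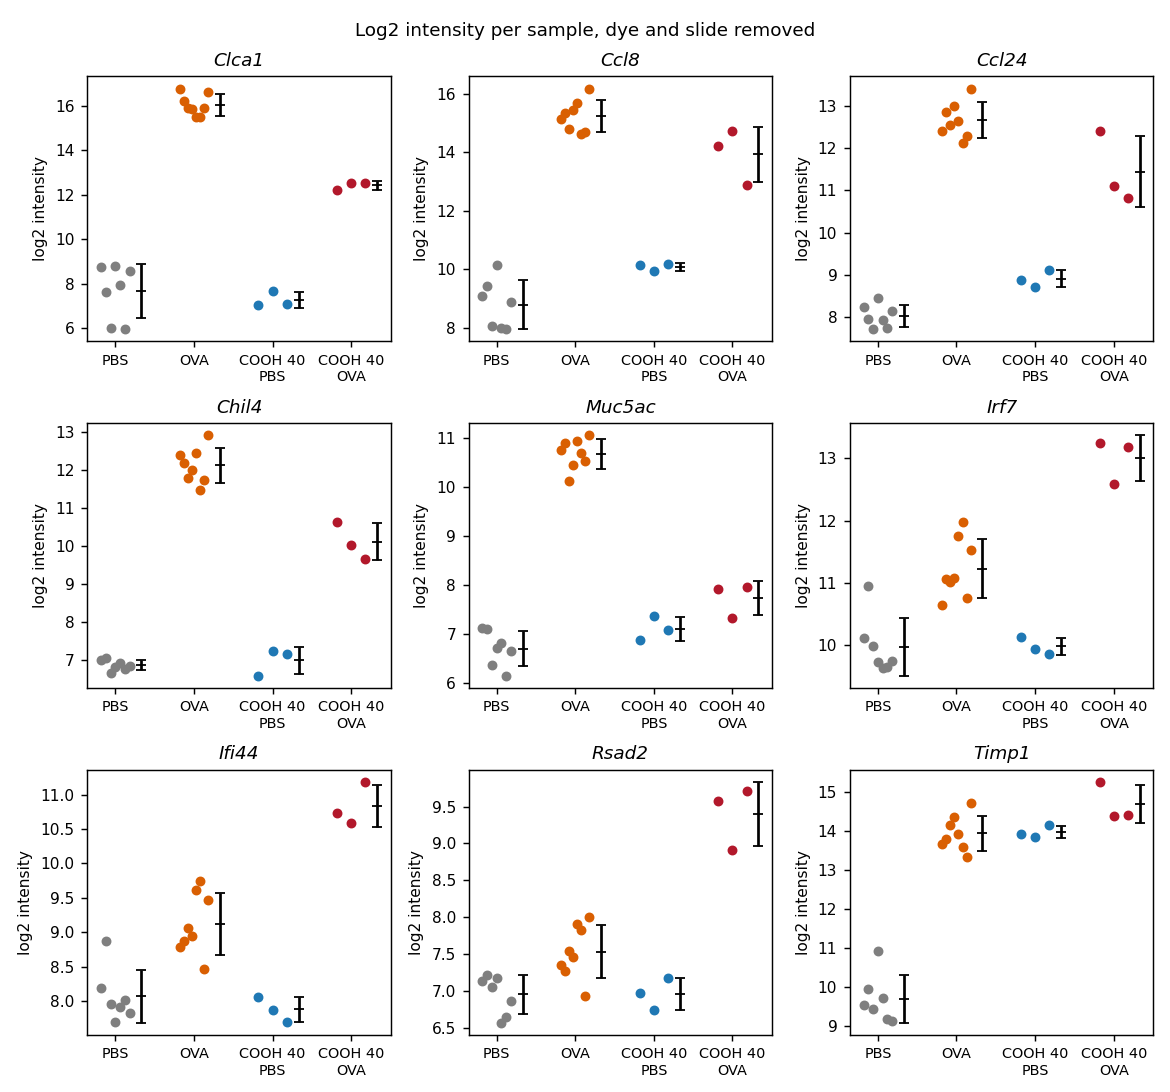
Log2 intensity (dye and slide removed) of 9 genes in PBS-challenged and OVA-challenged mice without nanomaterial (7 and 8 samples) and with CuO COOH 40 (3 and 3 samples), with 1 point per sample and a bar for mean ± SD. Irf7, Ifi44 and Rsad2 are highest in CuO COOH 40 + OVA, whereas Clca1, Chil4 and Muc5ac stay below the OVA controls, and Timp1 is already at 13.84 to 14.14 in CuO COOH 40 without OVA.

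Whether CuO COOH 40 lungs responded to OVA as lungs without nanomaterial did was tested as the difference between both OVA effects. It was called in 570 genes, 2.49% of those tested, with 100 differences above 0 (0.436%) and 470 below 0 (2.05%). Without nanomaterial, OVA changed 1445 genes (6.31%). Of the 406 rises in CuO COOH 40 lung, 298 (73.4%) were also called higher without nanomaterial, which is 29.2% of the 1022 genes called higher there (4.46% of all genes tested). In the test of the difference, 40 of the 406 had a larger and 52 a smaller effect in CuO COOH 40 lung. Across the 22911 genes, both OVA effects correlated at r = 0.64, as a description over genes that are not independent.

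**Figure D3:**
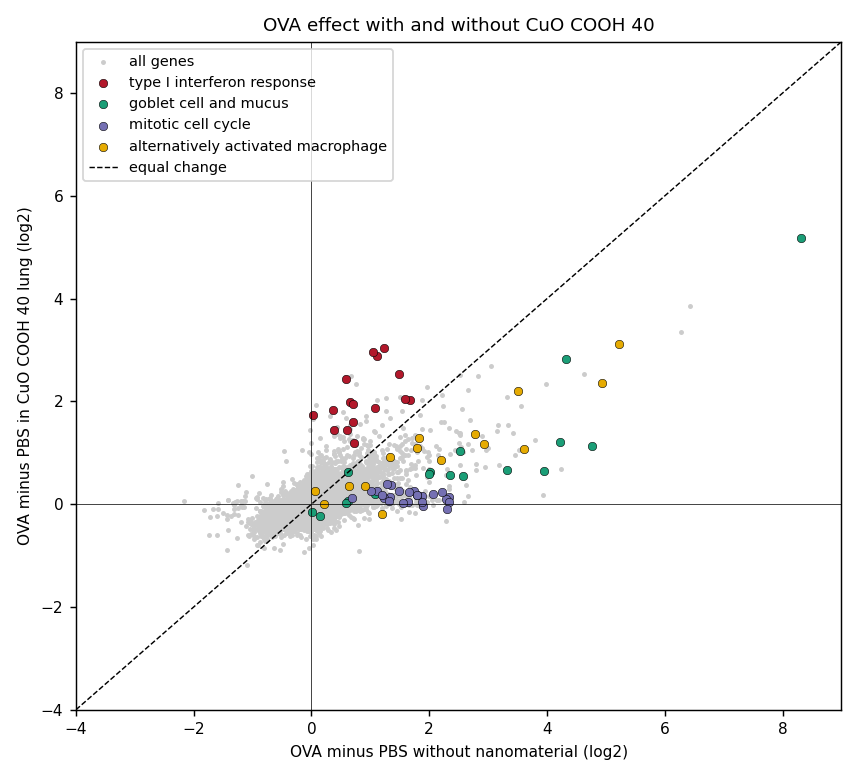
Each point is a gene, with the log2 OVA effect without nanomaterial on the x axis and in CuO COOH 40 lung on the y axis. The dashed line marks equal change. The 16 type I interferon genes lie above the line and the 25 mitotic genes near 0 on the y axis with a median of 1.65 on the x axis.

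Larger effects in CuO COOH 40 lung were led by interferon genes. Irf7 rose by 1.23 without nanomaterial (OVA samples 10.64 to 11.97, median 11.07, PBS samples 9.63 to 10.95, median 9.75), and the difference of effects was 1.8 ± 0.50 (adjusted p = 0.0204). For Ifi44 the difference was 1.92 ± 0.47 (adjusted p = 0.00575), and for Rsad2 1.85 ± 0.44 (adjusted p = 0.00448), where Rsad2 lay at 6.93 to 8.00 in the OVA controls and at 6.57 to 7.22 in the PBS controls. Slfn4 (1.90), Ifi44l (1.83) and Oasl1 (1.78) followed. Of the 16 type I interferon genes, 10 had a called larger effect (0.436% of all genes) and 0 a smaller one, with a median difference of 1.15 against 0.016 over all genes. That count was 5 without OVA sample 3, 6 without OVA sample 1 or PBS sample 3, 7 without PBS sample 1, and 0 with the array as a fixed term, where the median of the type I interferon response was 1.29. Among PBS-challenged lungs, CuO COOH 40 set against no nanomaterial called 0 of the 16 (9.14% of all genes), with a median of -0.02. Among OVA-challenged lungs it called 15 higher (2.31% of all genes), with a median of 1.19. Irf7 was at 9.86 to 10.13 in CuO COOH 40 lung, within the range of the PBS controls, and the 16 genes had a mean level of 8.99 to 9.14 there and of 8.75 to 9.46 in the PBS controls. Cxcl9 and Cxcl10 showed no called difference (differences of -0.33 and -0.36, adjusted p = 0.757 and 0.836).

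Smaller effects included genes whose level under OVA was lower in CuO COOH 40 lung. Muc5ac reached 10.12 to 11.05 (median 10.73) in the 8 OVA controls, from 6.14 to 7.11 in the PBS controls, but 7.33 to 7.95 in CuO COOH 40 + OVA, a difference of effects of -3.31 ± 0.56 (adjusted p = 2.57e-05). Gm15056 rose to 11.92 to 13.39 without nanomaterial and its difference was -2.92 ± 0.57 (adjusted p = 0.000311). Chil4 differed by -2.12 ± 0.43 and Ccl24 by -2.08 ± 0.46, both called. For Clca1, which was at 15.48 to 16.78 in the OVA controls, the difference of -3.14 had a wide interval (95% interval -5.69 to -0.58) and was not called (adjusted p = 0.166). Of the 17 goblet cell and mucus genes 15 rose without nanomaterial (4.46% of all genes). In CuO COOH 40 lung 10 had a called smaller effect (2.05% of all genes), or 1 with the array as a fixed term. Of the 15 genes of alternatively activated macrophages 7 had one. Differences for the eosinophil list were not called in any of 10 genes (median -0.30).

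Other genes with a smaller effect were already high in CuO COOH 40 lung without OVA. Arg1 was at 9.63 to 10.34 there, against 6.53 to 7.61 in the PBS controls, and reached 11.36 to 12.94 with OVA, within the 10.87 to 13.14 of the OVA controls, a difference of effects of -2.57 ± 0.60 (adjusted p = 0.00344). For Ccl8 the difference of effects was -2.58 ± 0.65 (adjusted p = 0.00758). Its level without OVA was called higher in CuO COOH 40 lung than in the PBS controls (by 1.30 ± 0.50, adjusted p = 0.0402) although the samples overlapped, and its level with OVA was not called lower (-1.28 ± 0.49, adjusted p = 0.0551). Timp1, an inhibitor of matrix metalloproteinases, was at 13.92, 13.84 and 14.14 in CuO COOH 40 without OVA and at 15.24, 14.38 and 14.41 with it. In mice without nanomaterial it went from 9.14 to 10.92 up to 13.32 to 14.72, and the difference of effects was -3.54 ± 0.46 (adjusted p = 4.33e-08). Fxyd4, a regulator of the sodium pump, was at 9.13 to 9.68 and 9.38 to 9.79 in CuO COOH 40 lung without and with OVA, against 6.12 to 7.51 and 9.16 to 11.63 in the controls. The OVA control at 9.16 stood apart from the next lowest at 10.46. Slc26a4, the anion exchanger pendrin, differed by -3.64 ± 0.44, and Agr2, a chaperone for mucins, by -3.00 ± 0.53. In both, the CuO COOH 40 lungs without OVA lay above all PBS controls (10.59 to 11.52 for Slc26a4 and 9.54 to 9.86 for Agr2). With OVA, Fxyd4 and Slc26a4 were also called lower in CuO COOH 40 lung than in the controls (-1.17 and -1.12, limma adjusted p = 0.00655 and 0.0119). Agr2 was not (-0.92, adjusted p = 0.105). Il33, an alarmin of epithelium and other structural cells, went from 8.74 to 9.31 in the PBS controls to 10.20 to 11.04 in the OVA controls. It was at 10.45 to 10.61 in CuO COOH 40 without OVA and at 10.20 to 10.36 with it, a difference of effects of -1.79 ± 0.22 (adjusted p = 1.17e-08).

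The mitotic cell cycle list followed the same pattern. All 25 genes rose with OVA without nanomaterial (mean level 7.49 to 8.06 in PBS and 9.08 to 9.71 in OVA controls), while 0 of 25 were called in CuO COOH 40 lung (9.72 to 10.02 without and 9.98 to 10.09 with OVA), and for 24 of 25 the difference of effects was called, and for 21 with the array as a fixed term. Top2a, the topoisomerase of dividing cells, was at 10.23, 9.94 and 10.15 in the PBS samples and at 10.40, 10.19 and 10.31 in the OVA samples. Of 22 matrix and wound repair genes, 0 were called in CuO COOH 40 lung. Without nanomaterial 8 rose (4.46% of all genes), and for 8 the effect in CuO COOH 40 lung was called smaller (2.05%). Of 19 acute phase genes 1 rose (C3) and 1 fell (Fgg), where 1.77% and 0.131% of all genes did. A smaller effect was called for 5 of them. In the list of 23 copper and oxidative stress genes, 0 were called in CuO COOH 40 lung. Mt2, a metallothionein, was at 14.35 to 15.08 and 14.39 to 14.82 with and without OVA.

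Genes of other tissues also moved in the controls. The mean level of 15 cardiac and skeletal muscle genes was 8.46 to 10.12 in the PBS controls and 8.30 to 9.43 in the OVA controls, and 8.25 to 8.49 and 8.18 to 8.87 in CuO COOH 40 without and with OVA. Of these genes 0 were called in CuO COOH 40 lung and 11 were lower with OVA without nanomaterial (1.85% of all genes). The muscle gene Myh7 was among the 100 larger effects (0.75). The erythrocyte list was at 8.49 to 8.75 and 8.39 to 8.87 in CuO COOH 40 lung and at 10.18 to 10.63 and 9.91 to 10.35 in the controls. Some genes of T cells and endothelium were lower in CuO COOH 40 lung than without nanomaterial. Among PBS-challenged lungs, 10 of 19 T cell genes and 14 of 16 endothelial genes were called lower with CuO COOH 40 than without nanomaterial (3.9% of all genes), with medians of -0.69 and -0.88. Among OVA-challenged lungs, 12 of 19 T cell genes and 4 of 16 endothelial genes were (1.89%), with medians of -0.82 and -0.48. All 4 measured eosinophil-associated ribonucleases were called lower with CuO COOH 40 in PBS-challenged lungs (median -2.29) and in OVA-challenged lungs (median -2.50). The part of these cells and tissues in the results was not tested.

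**Figure D4:**
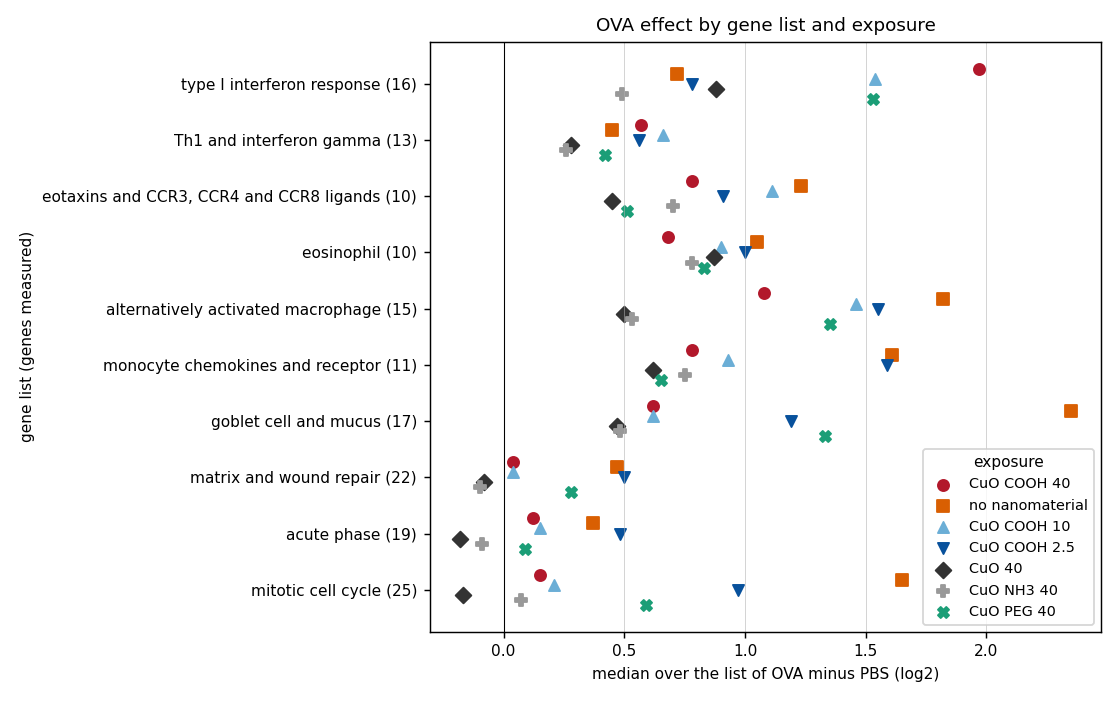
Median log2 OVA effect over 10 gene lists (rows, number of measured genes in brackets) for CuO COOH 40 lung and 6 other exposures (symbols). The type I interferon median is highest in CuO COOH 40 lung at 1.97, followed by CuO COOH 10 lung at 1.54 and CuO PEG 40 lung at 1.53. It is 0.72 without nanomaterial. The goblet cell and mitotic medians are highest without nanomaterial at 2.35 and 1.65.

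Against uncoated CuO at the same dose, the OVA effect was not called as different in any gene (0 of 22911 by limma, with 2133 genes, 9.31%, at an unadjusted p under 0.05). This does not show that both materials act alike. The median 95% interval extended 0.31 to either side of the estimate. For Irf7 the difference of effects was 1.78 (95% interval 0.58 to 2.98, adjusted p = 0.438), for Oasl1 1.81 (0.66 to 2.97) and for Rsad2 1.25 (0.20 to 2.30). For Muc5ac it was -0.32 (-1.66 to 1.03), for Prg2 0.07 (-0.82 to 0.96) and for Clca1 -0.14 (-3.18 to 2.91). The OVA effect in CuO 40 lung itself was called in 72 higher and 16 lower genes (0.384% in all), and 56 of the 406 rises (13.8%) were among the 72. These 56 were 77.8% of the 72. Of the 30 falls, 1 was called lower in CuO 40 lung (0.0698% of all genes), 19 without nanomaterial (1.85%), 20 in CuO COOH 2.5 lung (2.16%) and 13 in CuO COOH 10 lung (0.807%).

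Against the lowest dose of CuO COOH, the difference between OVA effects was called in 54 genes (0.236%), 5 above 0 (0.0218%) and 49 below (0.214%). Igf1, a growth factor, rose by 2.94 without nanomaterial and 2.63 with CuO COOH 2.5, and the difference to the 0.73 of CuO COOH 40 lung was -1.90 ± 0.33 (adjusted p = 0.0028). Spp1, the secreted matrix protein osteopontin, was at 14.75 to 15.12 in CuO COOH 40 without OVA and 14.83 to 15.13 with it, a difference of -2.16 ± 0.45 against CuO COOH 2.5 (adjusted p = 0.0169). Fxyd4 (-2.69), Timp1 (-2.26), Chl1 (-1.97) and Tff1 (-1.94) were the other named differences below 0, and Il33 differed by -1.66 ± 0.27. Of the 25 mitotic genes 7 had a called smaller effect than at 2.5 μg/day. Of the 5 larger effects, Ifit3b was at 10.39, 10.26 and 11.02 against 9.09, 9.26 and 8.99 and differed by 1.43 ± 0.35 (adjusted p = 0.0486). This call was lost in 16 of 23 alternatives, and its near copy Ifit3 was not called (1.23, limma adjusted p = 0.114). In the type I interferon list, which does not hold Ifit3b, 0 of 16 genes were called in this difference, with a median of 1.22. The difference for Gga3 (1.88) joins an effect of 1.01 in CuO COOH 40 lung and of -0.87 in CuO COOH 2.5 lung. The 1.01 rests on PBS sample 2 at 5.93, while the other PBS samples were at 8.15 and 8.07 and the OVA samples at 8.09 to 8.63. Por (0.88), Ly6c2 (0.76) and Plekha4 (0.66) were the others. Without a single sample the count of 54 ranged from 7, without CuO COOH 2.5 sample 2, to 74.

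**Figure D5:**
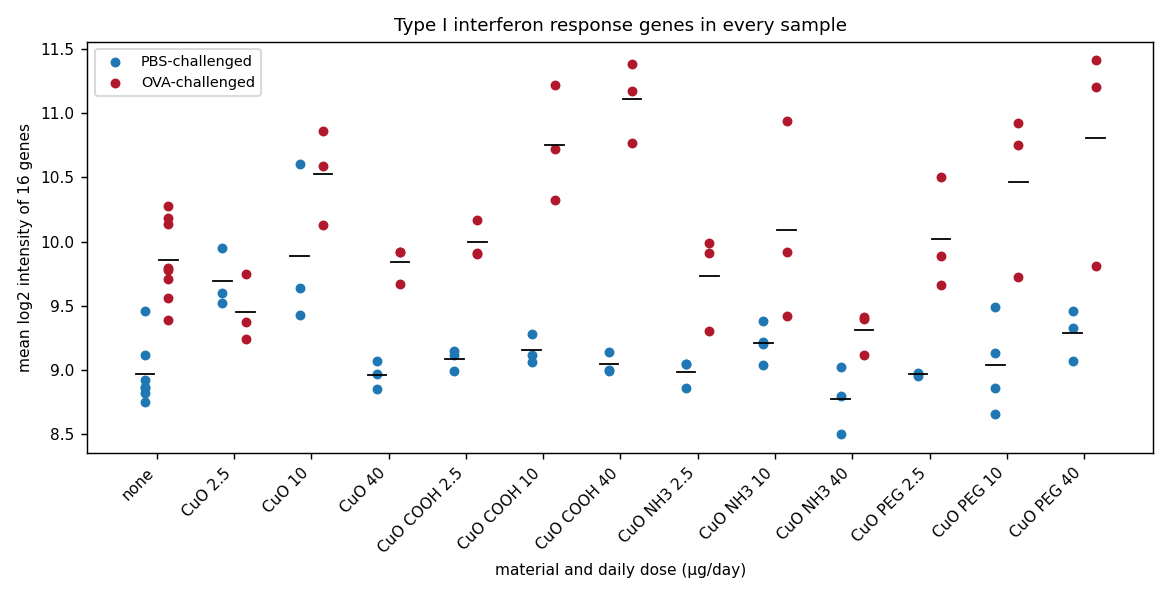
Mean log2 intensity of the 16 type I interferon response genes (y axis) in every sample, by material and daily dose in μg/day (x axis), with PBS-challenged samples in blue, OVA-challenged samples in red and a line for each group mean. CuO COOH 40 + OVA has the highest group mean, 11.11, and its samples overlap those of CuO COOH 10 + OVA and CuO PEG 40 + OVA, among others.

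The order of interferon levels was given by the group means of the type I interferon response list. CuO COOH 40 + OVA had 11.11 ± 0.31 (SD, n = 3), CuO PEG 40 + OVA 10.81 ± 0.87 (samples 11.41, 9.81 and 11.20), CuO COOH 10 + OVA 10.75 ± 0.45 and CuO 10 + OVA 10.53 ± 0.37. The samples of these 4 groups overlapped, and single samples of CuO PEG 10 + OVA (10.92) and CuO NH3 10 + OVA (10.94) also reached the range of CuO COOH 40 + OVA. CuO COOH 2.5 + OVA had 9.99 ± 0.15, the OVA controls 9.85 ± 0.32 (n = 8), CuO 40 + OVA 9.84 ± 0.14 and CuO NH3 40 + OVA 9.31 ± 0.16, and their samples lay below the 10.77 of the lowest CuO COOH 40 + OVA sample. One PBS-challenged sample of CuO 10 reached 10.60, so high levels were also seen without OVA challenge. All 16 genes were called higher with OVA in CuO COOH 10 lung (3.19% of all genes) and in CuO PEG 40 lung (2.61%) as well, 8 in CuO COOH 2.5 lung (4.16%), 12 without nanomaterial, and 0 in CuO 40 lung (0.314%) and CuO NH3 40 lung (1.05%). The differences between CuO COOH 40 and CuO PEG 40 or CuO COOH 10 lung were not tested. The CuO and CuO COOH samples were on slides 1 to 3, the CuO NH3 and CuO PEG samples on slides 4 to 6. Only the OVA and PBS controls were on all 6 slides, so levels across these sets are linked through the controls alone.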

How the data were processed

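RNA from 89 pooled lung samples was measured on 46 2-colour Agilent mouse arrays on 6 slides, 43 arrays with 2 samples and 3 with 1. The deposited scanner files hold the foreground and background intensity of every spot, written by Agilent Feature Extraction per the file headers, together with spot flags and other quality columns. The deposited value table holds log2 intensities that the authors had quantile normalized, in the same rank order as each sample's own channel in 89 of 89 samples. The annotation build of the array is not given in the sources used here.

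Median foreground intensities were log2 transformed, with no background subtracted, and brought to common quantiles with limma 3.58.1 in R 4.3.3. Control spots (3671 of 62976) and spots with an outlier mark were left out, spots were averaged to probes and probes to genes. Of 56605 probes, 32994 were named through their transcript accession in the RefSeq table and gave 22911 genes, and 23611 had no gene there. Near copies such as Chil3 and Chil4, or Ifit3 and Ifit3b, may share signal. limma was fitted to all 89 samples and 26 groups, with dye and slide as fixed terms and the array as a random block (correlation 0.0429). A call needed an adjusted p (Benjamini-Hochberg over all genes) under 0.05 and a fold above 1.5. The fit was tested on simulated data. The number of arrays limits the precision.

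The members and gene lists were chosen with earlier results of these data known. Named genes were the 10 largest called rises and falls without overlap between the groups, the 6 largest called differences each way of each difference of effects, a set of asthma genes and at most 4 called genes per list. C3, Gm31534, Top2a, Myh7 and others needed to describe a list were added. Alternatives changed the batch terms, samples, background, normalization, filter, probe summary, call rule and replicates. Replicate numbers did not pair the samples, since deviations of equal numbers correlated at -0.13, -0.09 and 0.08. Promoters were searched in the RefSeq table (GRCm38.p6) with Python 3.11.15. A member of the lists is not reported here.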

Additional observations from a re-analysis of the deposited data

Results flagged for a closer look

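The OVA effect in CuO COOH 40 lung differed from that without nanomaterial in 570 genes by the limma test of the difference. Among the named ones it was larger for Ifi44 (1.92), Slfn4 (1.90), Rsad2 (1.85), Ifi44l (1.83), Irf7 (1.8) and Oasl1 (1.78). It was smaller for Fxyd4 (-3.76), Slc26a4 (-3.64), Timp1 (-3.54), Muc5ac (-3.31), Agr2 (-3.00) and Gm15056 (-2.92).

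Against the effect at 2.5 μg/day of the same material the difference was called in 54 genes. Larger effects were those of Gga3 (1.88), Ifit3b (1.43), Por (0.88), Ly6c2 (0.76) and Plekha4 (0.66). Smaller ones were led by Fxyd4 (-2.69), Timp1 (-2.26), Spp1 (-2.16), Chl1 (-1.97), Tff1 (-1.94) and Igf1 (-1.90).

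In the control groups, a single sample stood far from the others in 10 of 112 sets of values examined, where chance gives about 1 in 20. PBS control sample 2 had the highest Irf7 (10.95, next 10.12) and Ifi44 (8.87, next 8.19) and the lowest Chil3 (12.39, next 13.28). PBS control sample 1 had the lowest Hmox1 (8.13, next 10.01) and the highest Il13 (6.19, next 5.84). PBS control sample 4 had the lowest Epas1 (15.96, next 16.38) and the highest Mt2 (12.17, next 11.55). Epx was highest in PBS control sample 6 (5.95, next 5.54), Fgg lowest in PBS control sample 3 (5.90, next 6.21), and Fxyd4 lowest in OVA control sample 6 (9.16, next 10.46). The groups of 3 samples are too small for this comparison.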

How the results depend on the processing

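For the OVA effect in CuO COOH 40 lung (436 calls), the adjusted p alone called 1046 genes, the array as a fixed term 1 and the 6 samples alone 182. Leaving out 1 sample gave 237 (without OVA sample 1) to 566, and the other alternatives 320 to 473. With replicate number as a block, 441 genes were called. Of 1293 values of named genes under the alternatives, 169 lost their call, and the genes called here kept their sign. Hmox1, Il5, Il13, Mt2 and Timp1, which were not called, changed sign under at least 1 alternative (Hmox1 to -2.11 and Timp1 to -0.94 with the array as a fixed term). For the difference to the effect without nanomaterial (570 calls), the adjusted p alone called 1110 genes, the array as a fixed term 241, the replicate block 543, the other alternatives 428 to 725, and leaving out 1 sample 457 to 642. Leaving out control samples, which was chosen after seeing the data, gave 474 to 646. For the difference to uncoated CuO (0 calls), the array as a fixed term called 2 genes, leaving out 1 sample 0 to 2 (2 without CuO COOH 40 sample 1), and the replicate block 0. The difference to CuO COOH 2.5 (54 calls) also changed with the processing, under many of the alternatives. It was 9 with the array as a fixed term, 14 with array position as a term, 11 without batch terms, 6 after loess, 29 with the highest probe, 101 for genes well above background, 119 on slides 1 to 3, 95 with the replicate block and 7 to 74 without 1 sample. With the array as a fixed term Gga3 turned to -0.59. The cause was not tested. Arrays fixed as terms leave the comparison to samples linked through other groups, since 0 arrays held both. Only 53.3% to 67.8% of spots were well above background, so absent calls of dim genes such as Il5 and Il13 say little.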

Other observations

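Of the 406 rises, 337 (83%) were called higher in CuO COOH 10 lung (3.19% of all genes), where they were 46.2% of its 730 higher calls, 322 (79.3%) in CuO PEG 40 lung (2.61%) and 157 (38.7%) in CuO NH3 40 lung (1.05%), where they were 65.1% of its 241. These comparisons share no samples with CuO COOH 40 lung. The CuO PEG 40 and CuO NH3 40 samples were on slides 4 to 6, which held no CuO COOH sample.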
